A study of Gallus gallus with 24 samples.

Results

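The hydroxysteroid dehydrogenases are enzymes that exchange a hydroxyl and a keto group on steroids, sterols or fatty acyl chains, and the family was followed here in abdominal fat of growing chickens through 10 genes, those whose symbol begins with HSD11B, HSD17B, HSD3B or HSDL, out of 6428 named genes on the arrays. These 10 genes had 15 spots. Of the 17 family genes in the chicken reference table, the other 7 (HSD11B1A, HSD11B2, HSD17B1, HSD17B2, HSD17B3, HSD17B11 and HSDL2) had no spot under those symbols and were not analysed here. The family was chosen by its mean HG over LG ratios over the 6 ages, foremost those of HSD11B1B and HSD17B7, so those ratios are given as a description with no test, and tests are given only for what the choice did not use, the change of the ratio with age.

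The birds were fed male chickens (cockerels) of a pair of Bresse-Pile lines bred in opposite directions on body weight, named HG for high growth and LG for low growth, and were killed at 1, 3, 5, 7, 9 or 11 wk. The comparison was between the lines, with no treatment. Per the study's methods both lines received a Marek's disease vaccine at hatch. They were housed apart for the first weeks and together afterwards, and while apart the LG birds got their pellets crushed. Line, early housing and early form of feed thus cannot be told apart. Each of the 24 arrays carried cDNA of an HG bird and an age-matched LG bird, with 4 arrays at each of 6 ages and 48 birds in all. On replicates 1 and 3 of each age the LG bird was labelled red, on replicates 2 and 4 the HG bird. Each array gave 17380 to 18529 measured spots. Ratios are on the log2 scale, HG over LG, with the median spot of each array set to 0, so that a positive value means expressed higher in HG relative to the median spot, and 1 unit is a doubling. Whether the deposited ratios hold red over green is likely from the dyes, the scan wavelengths and the software's usual ratio, but not stated beside the values, and with green over red all directions given here would be opposite.

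Only ratios were used, so no gene has a level here and the tissue could not be checked on how abundant its markers were. All 5 measured adipocyte marker genes had positive mean ratios (median 0.10), and 0 of them passed the test of the line difference by limma, beside 2.04% of all genes. Replicate 4 at 3 wk stood apart from the other arrays, with the fewest measured spots (17380), the highest median log2 ratio (0.32), the largest SD of the log2 ratios (1.21) and the lowest estimated weight (0.44).

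These enzymes share a fold and a nicotinamide cofactor but not a pathway. In mammals HSD11B1 restores active glucocorticoid from its inactive keto form inside liver and fat cells, and the HSD3B enzymes are needed to make progesterone and the sex steroids. Several HSD17B enzymes, although named for sex steroids, act mainly in cholesterol synthesis, fatty acid elongation, peroxisomal and mitochondrial oxidation or on lipid droplets.

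HSD11B1B, 1 of the chicken counterparts of HSD11B1, had the lowest mean ratio of the family, and HSD17B7, HSD3B7, HSD17B4 and HSD17B12 had the highest. Of the 9 genes with 3 or more measured arrays at each age, 5 had a positive and 4 a negative mean ratio. Their median mean ratio was 0.07, against 0.02 over all 6184 genes tested. HSD17B4 was measured on 22 arrays with only 2 at 7 wk and did not enter the fit. The test of the mean line difference, used only for genes outside the family, called 2.04% of all genes (0.922% higher and 1.12% lower in HG). Its outcome for the family's own genes is not given, since they were picked for these ratios. The dye coefficient, which is the part of a ratio that follows the red label and not the line, was larger in size than the mean line ratio in 5 of the 9 genes.

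**Figure D1:**
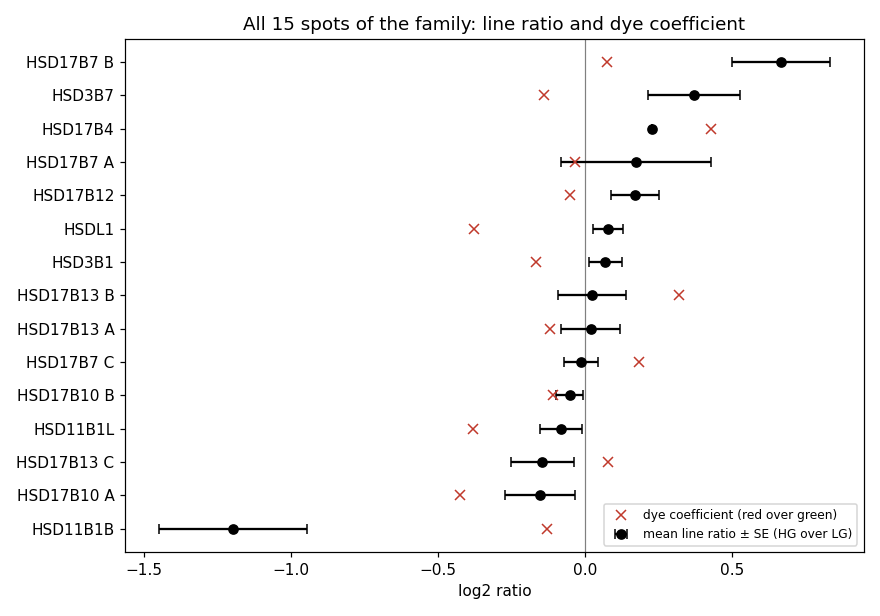
Mean log2 ratio of HG over LG for all 15 spots of the 10 genes (points, with the SE of the model as bars; HSD17B4 has no SE because it did not enter the fit) and the dye coefficient of the same spot (crosses, log2 of red over green). HSD11B1B lies at -1.20 and spot B of HSD17B7 at 0.67, while most other spots lie within 0.20 of 0 and several have a larger dye coefficient than line ratio.

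In the glucocorticoid branch, HSD11B1B was lower in HG on 20 of the 23 arrays that measured it. At 1 wk its log2 ratios were -1.40, -0.08, 1.55 and -2.98 on replicates 1 to 4. At 3 wk they were -0.49, -0.35 and -1.46, with no value on replicate 4, the array that stood apart. At 5 wk they were -0.96, -2.16, -0.50 and -0.83. Up to this age the LG bird of an array had more HSD11B1B signal on all arrays but replicate 3 at 1 wk. At 7 wk the ratios were -1.78, -3.36, -1.48 and -4.87, which holds the lowest pair of ratios of all 23 arrays. At 9 wk they were -0.77, 0.04, -1.77 and 0.73. At 11 wk they were -1.99, -0.56, -1.79 and -0.61. All 4 arrays were negative at 5, 7 and 11 wk, and both signs occurred at 1 and 9 wk.

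The mean ratio of HSD11B1B was -1.20 (SE 0.25, n = 23), or 2.3-fold lower in HG. In size it had rank 3 among all 6184 genes, and its spot had rank 28 among 16895 single probes. These ranks describe the value by which the family was chosen and lend it no support. By age the mean was -0.73 ± 1.86 (SD, n = 4) at 1 wk, -0.81 ± 0.71 (n = 3) at 3 wk, -1.11 ± 0.64 at 5 wk, -2.87 ± 1.43 at 7 wk, -0.44 ± 1.21 at 9 wk and -1.24 ± 0.91 at 11 wk. At 7 wk this was a 7.32-fold lower signal in HG and at 9 wk a 1.36-fold lower one. The spread between arrays of 1 age was wide, with a residual SD of 1.26 against a median of 0.33 over all genes. At 7 wk both arrays with HG in red lay below both with LG in red, and at 9 and 11 wk above them. The dye coefficient of HSD11B1B (-0.13) is 1 value for all ages and could not take out such a reversal. How far the differences among ages follow the label was not tested. The difference among the 6 ages did not pass the interaction test (moderated F of 2.11, unadjusted p = 0.11, adjusted p = 1 by limma). The linear trend was -0.05 log2 units per wk (SE 0.07, adjusted p = 0.999 by limma). Leaving out replicate 4 at 7 wk, the array with the lowest value, gave a mean ratio of -1.08. In the reference table the gene next to HSD11B1B is HSD11B1A, its close relative, for which there was no spot, and how far cDNA of that gene could bind the HSD11B1B spot was not tested.

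**Figure D2:**
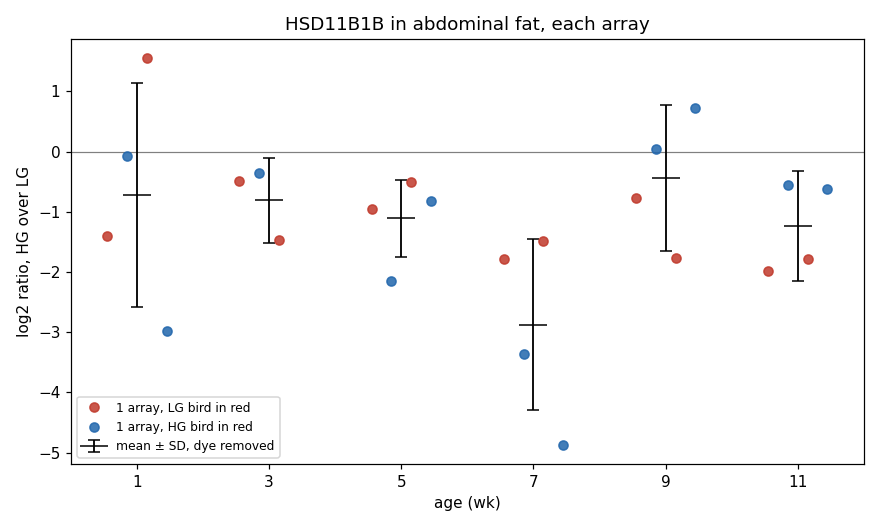
HSD11B1B log2 ratio of HG over LG (vertical axis) on each array by age in wk (horizontal axis), coloured by the line labelled red; short horizontal lines and bars are the mean and SD of an age with the dye part taken out. The 4 arrays of 7 wk lie between -4.87 and -1.48, and the only values above 0 are 1 array at 1 wk and 2 arrays at 9 wk.

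Bulk fat can hold cells of several types, and in a bulk sample fewer cells of a type and less RNA per cell cannot be told apart. Hepatocyte genes moved with HSD11B1B over the arrays. Of 12 measured hepatocyte marker genes, 11 had a negative mean ratio (median -0.31 over the list), and 1, APOA1, the main protein of high-density lipoprotein, passed the test of the line difference (-0.25, SE 0.06, lower in HG on 18 of 24 arrays, adjusted p = 0.0347 by limma), where 1.12% of all genes passed as lower. The APOA1 call was lost with 1 probe per gene (-0.03, adjusted p = 0.793), on values as deposited (0.0838), without the dye coefficient (0.0804) and on leaving out any of 13 of the 24 arrays. The list's median by age was -0.09 at 1 wk, -0.31 at 3 wk, -0.45 at 5 wk, -0.49 at 7 wk, -0.07 at 9 wk and -0.05 at 11 wk. Both the list and HSD11B1B were lowest at 7 wk. At 11 wk the list was nearest 0, while HSD11B1B had its second lowest mean (-1.24).

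Across the 23 arrays, with the dye coefficient removed, the list's median and HSD11B1B had a Pearson r of 0.66 and a Spearman rho of 0.68. Within ages the r was 0.71, and without the 2 arrays farthest from the median of HSD11B1B it was 0.46. On replicate 4 at 7 wk, where HSD11B1B was at -4.73 after dye removal, the list's median was -1.13, F2 (prothrombin) was at -8.09, FGA (a fibrinogen chain) at -3.55 and ALB (serum albumin) at -2.40. On replicate 3 at 1 wk, where HSD11B1B was at 1.42, the list's median was 0.64, F2 was at 1.97, FGA at 2.50 and ALB at 2.33. The highest and the lowest HSD11B1B ratio thus fell on arrays whose hepatocyte genes stood on the same side of 0. The next ones did so only in part. On replicate 2 at 7 wk HSD11B1B was next lowest at -3.23. There the list's median was -0.19, with F2 at -1.24, FGA at -0.305 and ALB at 0.83. On replicate 4 at 9 wk HSD11B1B was next highest at 0.86. There the list's median was -0.08, with F2 at 4.20, FGA at 0.45 and ALB at -0.37. Of the 12 hepatocyte genes 7 had an r above 0.5 with HSD11B1B, among 84 of the 6172 genes measured on enough of the same arrays (1.36%). FGG, another fibrinogen chain, ran the other way with an r of -0.47. After dye removal the list's median was negative on 19 of 24 arrays. These correlations are descriptions over arrays that share their hybridisation and centring. At 9 and 11 wk both HSD11B1B and the list's median were lower on the arrays with LG in red, also after dye removal. At 7 wk only HSD11B1B split by label, in the opposite order. How far the r follows the label was not tested. Whether RNA of liver cells had a part in the HSD11B1B ratio was not tested either. On the other marker lists the r of the list's median with HSD11B1B ranged from -0.42 for genes of steroid-making glands to 0.32 for leukocyte genes. For the gland list the Spearman rho was -0.62. Without the 2 farthest arrays its r was -0.54, larger in size than the 0.46 of the hepatocyte list. The leukocyte list had a rho of 0.29, and an r of 0.27 without those arrays. The 5 measured smooth muscle genes all had negative mean ratios (median -0.23), and 1 of them, the myosin light chain MYL9, passed the test of the line difference (-0.52, SE 0.12, adjusted p = 0.0296 by limma), where 1.12% of all genes passed as lower. The MYL9 call was lost on leaving out any of 9 arrays, on values as deposited (0.0693), without the dye coefficient (0.193) and with no filter on missing spots, where the ratio was -0.27 (0.234).

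**Figure D3:**
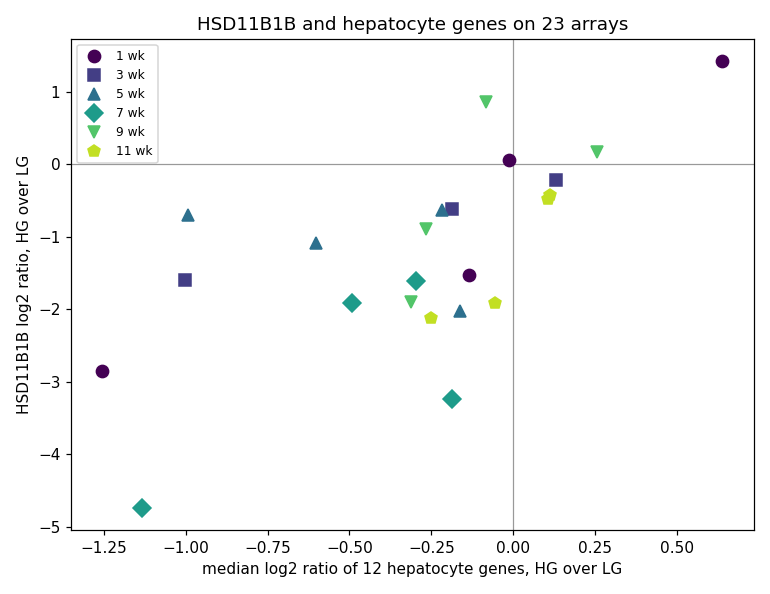
HSD11B1B log2 ratio of HG over LG (vertical axis) against the median log2 ratio of 12 hepatocyte marker genes (horizontal axis), each point 1 of 23 arrays, with the dye coefficient removed and ages marked by shape and colour. The points rise together (Pearson r of 0.66), from the array of 7 wk at the lower left to the array of 1 wk at the upper right.

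The 5 genes whose ratios followed HSD11B1B most closely were CREB3L4, a transcription factor of the endoplasmic reticulum membrane (r = 0.84, n = 23), F2 (r = 0.76), FGA (r = 0.75), C3, the central complement component (r = 0.73), and KTI12 (r = 0.70, n = 22). Without the 2 farthest arrays r was 0.82 for CREB3L4 and 0.72 for KTI12 but 0.61 for F2, 0.55 for C3 and 0.49 for FGA. CREB3L4 and KTI12 thus kept their r without those arrays, and the liver-secreted proteins in this group did not keep theirs in full. None of the 5 passed the test of the line difference, with adjusted p from 0.20 for CREB3L4 to 0.688 for KTI12 by limma.

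HSD11B1L, a relative of HSD11B1 in sequence, had a mean ratio of -0.08 (SE 0.07, n = 23) and was higher in HG on 11 arrays. Its values ran from -1.18 to 0.83 with a median of -0.05, and its dye coefficient of -0.38 exceeded its line ratio. By age its means lay between -0.18 at 3 wk and 0.06 at 7 wk, and neither the interaction (unadjusted p = 0.902) nor the trend (unadjusted p = 0.667) passed by limma. The pair of 11-type genes thus differed in size of ratio and in spread, with residual SDs of 1.26 and 0.35.

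Of 10 measured genes of the glucocorticoid receptor and its chaperones, 0 passed the test of the line difference in either direction, beside 2.04% of all genes. The largest mean ratios of that list were 0.19 for DNAJA1, a co-chaperone (SE 0.06, adjusted p = 0.131 by limma, above 0 on 19 of 24 arrays), and -0.11 for FKBP5, which binds the receptor complex (SE 0.05, adjusted p = 0.427 by limma). Of 14 measured genes known to be induced by glucocorticoids, 1 was higher in HG and 0 were lower, beside 0.922% and 1.12% of all genes. It was ANXA1, an anti-inflammatory phospholipid-binding protein, at 0.21 (SE 0.05, above 0 on 15 of 24 arrays, adjusted p = 0.0333 by limma). Its call was lost on leaving out any of 14 of the 24 arrays (adjusted p from 0.0139 to 0.0704 by limma over all 24) and without the dye coefficient (0.554). The mean ratio was positive in 4 and negative in 6 genes of the first list and positive in 5 and negative in 9 of the second, with a median of -0.01 in both against 0.02 over all genes.

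In the branch of steroid and bile acid synthesis, HSD3B7 had the highest mean ratio of the genes with 1 spot. In mammals it acts on sterols on the way to bile acids. Its log2 ratios were 0.45, -0.71, 1.89 and 0.05 on replicates 1 to 4 at 1 wk. They were -0.12, -0.67, 0.05 and 1.37 at 3 wk. They were 0.80, 0.22, -0.15 and 1.44 at 5 wk. The sign thus changed from array to array at each of these ages. At 7 wk the ratios were 1.10, -0.29, -0.76 and -0.51. At 9 wk they were 1.61, 0.61, 0.94 and 0.44, the only age with all 4 arrays above 0. At 11 wk they were -0.24, -0.32, 0.58 and 1.13. The mean was 0.37 (SE 0.16, n = 24, higher in HG on 15), or 1.29-fold. The residual SD was 0.81, and the mean at 9 wk was 0.90 ± 0.39 (SD, n = 4) against -0.12 ± 0.78 at 7 wk. This difference among ages was not past the threshold (interaction F of 0.84, unadjusted p = 0.541, adjusted p = 1 by limma), and neither was the trend of 0.01 per wk (SE 0.05, unadjusted p = 0.793 by limma). Without replicate 4 at 3 wk, the array that stood apart, the mean ratio was 0.29.

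HSD3B1, which in steroid-making tissue turns pregnenolone into progesterone, varied little. Its values ran from -0.50 to 0.68 with a median of 0.05, and the mean ratio was 0.07 (SE 0.06, n = 24, higher in HG on 13). Its residual SD of 0.27 was below the median over all genes, and neither the interaction (unadjusted p = 0.921) nor the trend (unadjusted p = 0.498) passed by limma. Of 20 measured genes of sex steroid synthesis, breakdown and receptors, 0 were higher and 1 was lower in HG, beside 0.922% and 1.12% of all genes. It was CYP17A1, the hydroxylase and lyase on the way to androgens and cortisol, at -0.35 (SE 0.07, lower in HG on 20 of 24 arrays, adjusted p = 0.00943 by limma). CYP17A1 stands on the list of steroid-making gland markers too, where it was the only 1 of 5 measured genes to pass, and the median of those 5 was 0.02.

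In the sterol branch, HSD17B7 had 3 spots. In mammals it reduces a keto group late in cholesterol synthesis and can turn estrone into estradiol. The mean of the spots was 0.28 (SE 0.07, n = 24), or 1.21-fold higher in HG, and was above 0 on 17 arrays. Averaged over spots, the ratios were -0.06, -0.02, 0.58 and 0.17 on replicates 1 to 4 at 1 wk and -0.01, 0.18, -0.47 and 0.95 at 3 wk. At 5 wk they were 0.18, 0.41, 0.10 and 0.01 and at 7 wk 0.25, 0.58, 0.54 and 0.61. At these later ages all arrays were above 0. At 9 wk the ratios were 0.33, 0.88, 0.27 and 0.58, again all above 0. At 11 wk they were -0.02, -0.11, 0.74 and -0.03, with only 1 above 0.

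The 3 spots of HSD17B7 did not move together. Spot B had a mean ratio of 0.67 (SE 0.17, above 0 on 20 of 24 arrays), spot A of 0.17 (SE 0.25, 16 arrays) and spot C of -0.01 (SE 0.06, 11 arrays). Across the 24 arrays the Pearson r was -0.50 between A and B, -0.07 between A and C and -0.26 between B and C, after removal of the dye coefficient. Over all genes of the arrays, 5231 pairs of spots of the same gene had a mean r of 0.05 before that removal, so poor likeness between spots of 1 gene was usual here. Without spot B the mean ratio of the gene was 0.08.

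Spot B at 7 wk was at 0.85, 1.09, 1.69 and 1.66 on replicates 1 to 4. At 9 wk it was at 1.5, 1.74, 0.54 and 2.12. At 11 wk it was at -1.04, 0.15, -1.48 and 1.63. Both earlier of these ages lay wholly above 0 (means of 1.32 ± 0.41 and 1.47 ± 0.61, SD, n = 4), and at 11 wk the arrays were split (mean of -0.18 ± 1.32). At 11 wk the arrays with LG in red were the negative ones and those with HG in red the positive ones. Spot A showed the reverse at the same age, with 0.81 and 4.11 on replicates 1 and 3 and -0.50 and -1.63 on replicates 2 and 4. Spot C stayed between -0.65 and 0.54 on all 24 arrays. Tested on its own spot, the interaction of spot B had an unadjusted p of 0.0706 and an adjusted p of 1 by limma, and that of the gene had an unadjusted p of 0.411. The trend of the gene was 0.02 per wk (SE 0.02, adjusted p = 0.999 by limma). Replicate 4 at 3 wk carried the highest of the 24 ratios of the gene, and without it the mean was 0.23.

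**Figure D4:**
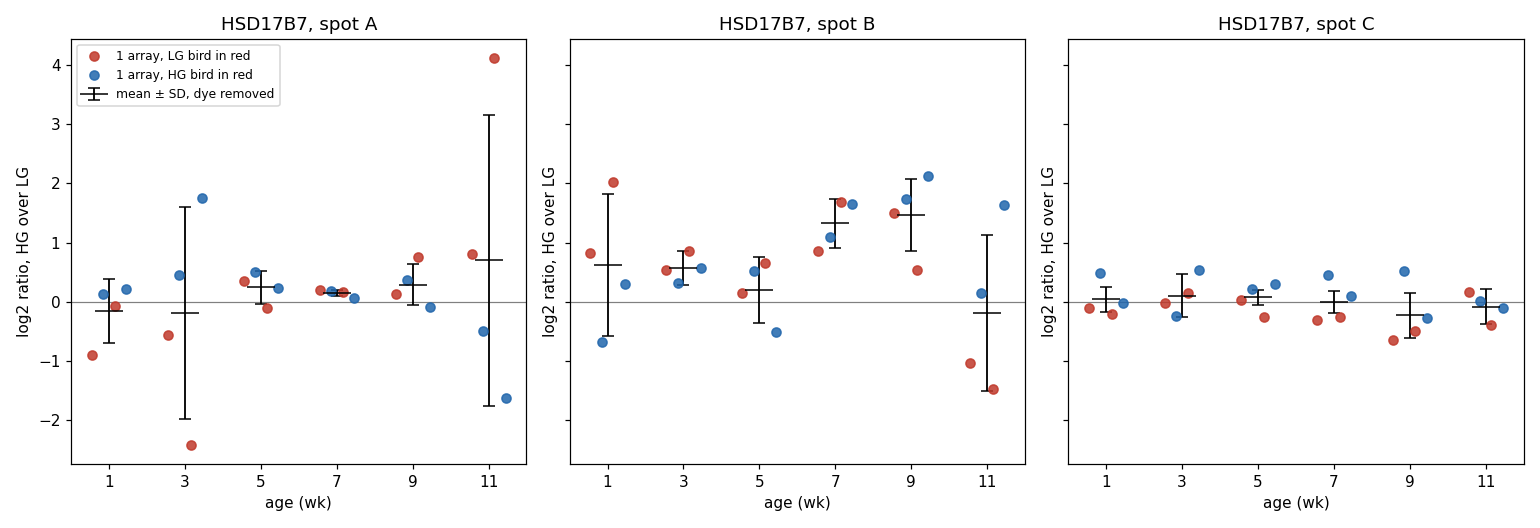
Log2 ratio of HG over LG (vertical axis) on each array by age in wk for the 3 spots of HSD17B7, coloured by the line labelled red, with the mean and SD of each age after dye removal as lines and bars. Spot B lies above 0 on all arrays of 3, 7 and 9 wk, spot A has its widest range at 11 wk (-1.63 to 4.11), and spot C stays near 0.

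Of 15 measured genes of sterol synthesis, 0 passed the test of the line difference, beside 2.04% of all genes. Their mean ratios were above 0 in 10 and below 0 in 5, with a median of 0.05 against 0.02 over all genes. The largest were those of DHCR7, which makes cholesterol in its last step, at 0.34 (SE 0.17, n = 22, adjusted p = 0.424 by limma) and MSMO1, a sterol demethylating oxidase, at 0.25 (SE 0.07, above 0 on 19 of 24 arrays, adjusted p = 0.0693 by limma). MSMO1 passed where the arrays were scaled to the same spread (adjusted p = 0.0424 by limma) and on leaving out replicate 4 at 1 wk, replicate 2 at 3 wk, replicate 3 at 9 wk or replicate 3 at 11 wk (0.0341 to 0.0465), and with 1 probe per gene its ratio was 0.51 (0.0968). Against spot B, a comparison chosen after its values were seen, DHCR7 had an r of 0.68 (n = 22, 0.66 without the 2 farthest arrays) and FDPS, which makes farnesyl diphosphate, of -0.57, so the genes of the pathway had no common side. The genes most like HSD17B7 as averaged were TTYH3 (r = 0.69, n = 24), BGN, the matrix proteoglycan biglycan (r = 0.69), SPIRE2 (r = 0.67), ZNF706 (r = 0.64) and SLC25A30 (r = 0.63), none past the test of the line difference (lowest adjusted p = 0.0783, for ZNF706, by limma). Those most like spot B were THNSL2 (r = 0.79), TCF21, a mesenchymal transcription factor (r = 0.74), ADRA2A, an adrenergic receptor (r = 0.73), NPDC1 (r = 0.73) and POLR2D (r = 0.71, n = 23). The closest 5 genes of the average and of its most deviant spot were thus different genes.

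In the fatty acid branch, HSD17B12 takes part in the elongation of very long chain fatty acids as the ketoacyl-CoA reductase. Its mean ratio was 0.17 (SE 0.08, n = 24, higher in HG on 15), and its values ran from -0.63 to 0.88 with a median of 0.20. At 1 wk all 4 arrays were above 0, at 0.64, 0.22, 0.65 and 0.88, with a mean of 0.60 ± 0.27 (SD), or 1.51-fold. At 11 wk they were -0.60, -0.23, 0.18 and -0.08, with a mean of -0.18 ± 0.34. At 3 and at 5 wk 2 of the 4 arrays were above 0. Neither the trend of -0.04 per wk (SE 0.02, unadjusted p = 0.0896, adjusted p = 0.999) nor the interaction (unadjusted p = 0.159) passed by limma. Of 8 measured genes of very long chain elongation 0 passed the test of the line difference, beside 2.04% of all genes, and 7 had a mean ratio above 0 (median 0.04). The largest in size were ELOVL2, an elongase of polyunsaturated chains, at -0.27 (SE 0.26, adjusted p = 0.737 by limma) and ACSL1, which activates long chain fatty acids, at 0.25 (SE 0.14, adjusted p = 0.519 by limma).

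HSD17B4, the D-bifunctional protein of peroxisomal fatty acid oxidation, had a mean ratio of 0.23 over 22 arrays, and a single array made most of it. At 5 wk its ratios were -0.37, 0.27, -0.27 and 4.24 on replicates 1 to 4. At 1 wk they were -0.07, 0.61, -0.17 and 0.07, and at 3 wk -0.14, 0.09, -0.11 and 0.05. The value of 4.24 stood far above every other ratio of this gene. At 7 wk only replicates 3 and 4 had a value, -0.27 and 0.62. At 9 wk the ratios were -0.14, 0.31, -0.48 and 0.39 and at 11 wk 0.10, 0.32, -0.24 and 0.27. Without replicate 4 at 5 wk the mean ratio was 0.06. The dye coefficient of 0.43 exceeded the line ratio of 0.23, both from all 22 arrays with replicate 4 at 5 wk among them. The dye coefficient without that array is not given. On every array with HG in red the ratio was above 0. With no filter on missing spots, where HSD17B4 could be fitted among 6404 genes, the interaction had an unadjusted p of 0.59 and the trend of 0.86 by limma. Of 21 measured genes of peroxisomal fatty acid oxidation 0 passed the test of the line difference, beside 2.04% of all genes (10 above and 11 below 0, median -0.02). The largest in size were ACAA1, the peroxisomal thiolase, at -0.40 (SE 0.32, n = 22, adjusted p = 0.681 by limma) and PEX14, a docking protein for peroxisomal import, at 0.29 (SE 0.13, adjusted p = 0.347 by limma). The trend with age was positive in 18 of the 21, with a median of 0.02 per wk against 0.0005 over all genes. Of these 0 passed, as 0% of all genes did, and a common rise of the list was not tested.

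HSD17B10, a mitochondrial enzyme of isoleucine breakdown that is also a subunit of mitochondrial ribonuclease P, had 2 spots and a mean ratio of -0.10 (SE 0.06, n = 24, higher in HG on 9). Spot A gave -0.15 (SE 0.12) with values from -1.73 to 1.06, and spot B gave -0.05 (SE 0.05) with values from -0.43 to 0.49. Their Pearson r was -0.27. At 9 wk spot B was below 0 on all 4 arrays (-0.32 ± 0.19, SD), and spot A on 2 of 4 (-0.38 ± 0.68). The dye coefficient of the gene was -0.27. The interaction (unadjusted p = 0.338) and the trend (unadjusted p = 0.224) did not pass by limma. Of 18 measured genes of mitochondrial branched-chain and short-chain acyl oxidation 0 passed the test of the line difference, beside 2.04% of all genes (10 above and 8 below 0, median 0.02). That list was wider than its name. It also held TRMT10C, of mitochondrial ribonuclease P, and HADHA and HADHB, the subunits of the trifunctional protein of long chain oxidation. The largest in size were ACADS, the short-chain acyl-CoA dehydrogenase, at 0.38 (SE 0.16, adjusted p = 0.327 by limma) and ACADSB, which oxidises branched short chains, at 0.27 (SE 0.20, adjusted p = 0.655 by limma). Of 4 measured genes of mitochondrial fatty acid synthesis 0 passed, beside 2.04% of all genes. The largest in size there were LIAS, the lipoic acid synthase, at -0.25 (SE 0.19, n = 22, adjusted p = 0.667 by limma) and OXSM, the condensing enzyme, at -0.17 (SE 0.12, adjusted p = 0.635 by limma).

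HSD17B13, a lipid droplet protein best known from mammalian liver, had a mean ratio near 0 and was the only gene of the family with an unadjusted p under 0.05 for a change with age. Averaged over its 3 spots the ratios were 0.10, 0.35, 0.34 and 0.34 on replicates 1 to 4 at 1 wk, -0.26, 0.11, 0.10 and 0.38 at 3 wk and -0.64, -0.71, -0.58 and 0.28 at 5 wk. They were 0.19, 0.07, 0.02 and 0.21 at 7 wk, 0.30, -0.20, 0.01 and 0.02 at 9 wk and -0.34, 0.15, -0.78 and -0.14 at 11 wk. All 4 arrays were above 0 at 1 and at 7 wk, and 3 of 4 were below 0 at 5 and at 11 wk. The mean over ages was -0.03 (SE 0.06, n = 24). The interaction had an F of 3.70 (unadjusted p = 0.0165, adjusted p = 0.854) and the trend was -0.03 per wk (SE 0.02, unadjusted p = 0.0478, adjusted p = 0.998) by limma. At an unadjusted p under 0.05 stood 4.87% of all genes for the interaction and 4.98% for the trend, and at an adjusted p under 0.05 stood 0.0323% and 0%. In the family these counts were 1 of 9 for each at the unadjusted and 0 of 9 for each at the adjusted threshold.

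The spots of HSD17B13 differed in how their ratios changed with age. Spot A had a trend of -0.07 per wk (SE 0.03, unadjusted p = 0.0404, adjusted p = 1 by limma), from a mean of 0.36 at 1 wk to -0.48 at 11 wk (n = 3), while spot C had a trend of -0.05 per wk (SE 0.03, unadjusted p = 0.118). Spot C carried the lowest interaction p. It was at 0.53, 1.63, 0.24 and 0.89 at 1 wk, a mean of 0.82 ± 0.53 (SD, n = 4). It was at -2.75, -1.32, -0.81 and -0.47 at 5 wk, a mean of -1.34 ± 0.96, or 2.53-fold lower in HG. At 3, 7, 9 and 11 wk spot C lay between -0.52 and 0.52. Its interaction had an F of 6.95 (unadjusted p = 0.000769, adjusted p = 0.50 by limma over 16895 probes, where 4.55% of probes had an unadjusted p under 0.05 and 0% an adjusted one). Spots A and B carry the same expressed sequence. At 5 wk spot A was at 0.01 ± 0.16 and spot B at 0.10 ± 1.01, and at 1 wk spot A was above 0 on all 4 arrays and spot B below 0 on all 4 (mean -0.33). The Pearson r was 0.21 between A and B (n = 23), 0.05 between A and C (n = 23) and -0.36 between B and C (n = 24). Neither of the other spots thus showed the fall at 5 wk, and spots of an identical sequence had opposite signs at 1 wk. HSD17B11, its neighbour in the reference table, had no spot.

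Of 12 measured lipid droplet coat and surface proteins 0 were higher and 1 was lower in HG, beside 0.922% and 1.12% of all genes, with 6 mean ratios on each side of 0 and a median of 0.00. The gene that passed was PNPLA2, the adipose triglyceride lipase, which begins the breakdown of stored fat, at -0.76 (SE 0.11, lower in HG on 20 of 24 arrays, adjusted p = 0.000712 by limma).

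**Figure D5:**
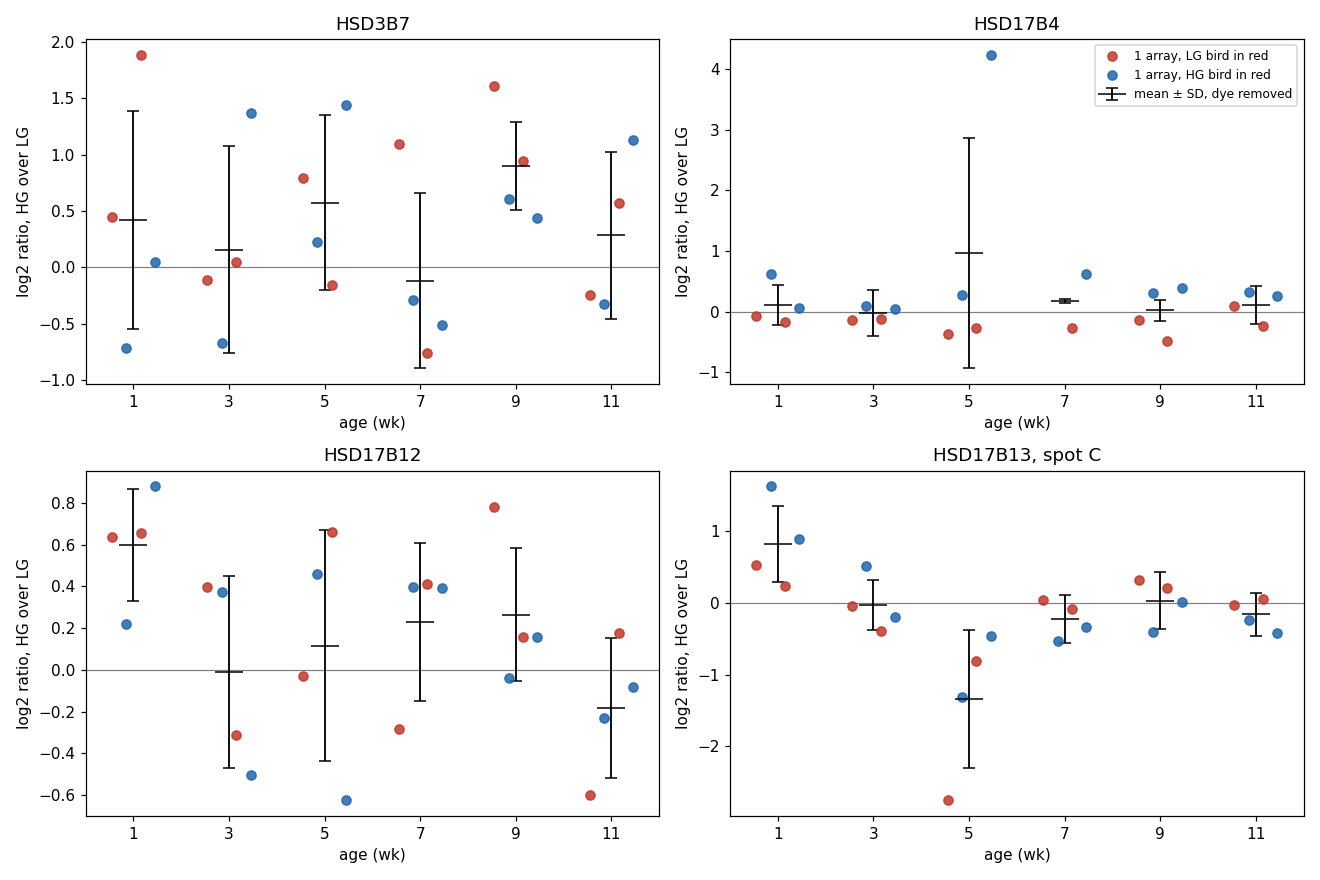
Log2 ratio of HG over LG (vertical axes, each with its own range) on each array by age in wk for HSD3B7, HSD17B4, HSD17B12 and spot C of HSD17B13, coloured by the line labelled red, with the mean and SD of each age after dye removal. A single array of 5 wk at 4.24 stands out for HSD17B4, the arrays of 1 wk lie above 0 for HSD17B12, and spot C of HSD17B13 lies above 0 at 1 wk and below 0 at 5 wk.

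HSDL1, a mitochondrial protein related to these enzymes in sequence, had a mean ratio of 0.08 (SE 0.05, n = 24, higher in HG on 14) and a dye coefficient of -0.38. Its values ran from -0.61 to 0.79 with a median of 0.13, and all 4 arrays were above 0 at 1 wk (0.03 to 0.32). The interaction (unadjusted p = 0.78) and the trend (unadjusted p = 0.877) did not pass by limma. Across arrays HSDL1 followed HSD3B1 (r = 0.85, n = 24) and ran against HSD11B1L (r = -0.65, n = 23), after removal of the dye coefficient, and HSD11B1L ran against HSD3B1 as well (r = -0.62, n = 23). These are descriptions over arrays that share their centring and dyes. The dye coefficient is 1 value for all ages, but the gap between label orientations changed with age. HSDL1 was at 0.322 and 0.303 with LG in red and at 0.211 and 0.026 with HG in red at 1 wk. At 9 wk it was at 0.609 and 0.792 against -0.605 and -0.565. Part of the dye effect thus stayed in these values, and how far the r follow the label was not tested. HSD11B1B followed none of the other fitted family genes closely. Its r ran from -0.22 with HSDL1 to 0.34 with HSD3B7, and was 0.18 with HSD11B1L and -0.06 with HSD17B7. Of 22 measured genes of other short-chain dehydrogenases, the wider superfamily, 0 were higher and 1 was lower in HG, beside 0.922% and 1.12% of all genes, with 11 mean ratios on each side of 0. It was DCXR, which reduces dicarbonyls and xylulose, at -0.25 (SE 0.05, adjusted p = 0.0151 by limma). Before removal of its dye coefficient DCXR was lower in HG on 13 of 24 arrays, and without the dye coefficient in the model the call was lost (adjusted p = 0.783).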

How the data were processed

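The deposited log2 ratios per spot were made by the authors from scans of spotted cDNA arrays with image software. The study's methods describe LOWESS normalization, but array medians ran from -0.336 to 0.32, so the deposited values had not been normalized in that way. Neither intensities nor background were used here. Of 460800 values, 20191 (4.38%) lacked a ratio and 2190 (0.48%) were at the software's ceiling of 16.61, and both kinds were set to missing. Because spot intensity was not used, its bearing on the precision of a value could not be checked. The errors rest on the spread between arrays. RNA extraction is given differently in the labels and in the methods.

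Spots were named through the platform annotation, in which 10601 of 19200 spots had 1 symbol and 8599 none. The last numbers of its spot identifiers stand in exchanged order to those of the values. Read so, annotated spots were missing on 0.62 arrays on average and others on 1.84 (1.12 and 1.22 as given), and the mean r of spots of 1 gene was 0.052 (0.003 as given). Of the named spots 10455 had an identifier current in the reference table, which the spot of HSD17B12 had not. Spots of a family gene are lettered by their position on the array. No reference sequences were used, and gene positions served only to find neighbouring genes.

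Each array was centred on its median and turned to HG over LG. Spots with 3 or more measured arrays at each age (16895) were averaged per symbol to 6184 genes. Models with 6 ages and a dye coefficient were run in limma (version 3.58.1, R 4.3.3), with contrasts for the mean over ages (line difference), for any difference among ages (interaction) and for a linear trend. The p-values were adjusted by Benjamini-Hochberg over all genes or, for single spots, over all probes, with a threshold of 0.05. The SD of an age is taken after removal of the dye coefficient, and counts of arrays before it unless stated otherwise. The fit was tested on simulated data. The family and all gene lists were chosen with earlier results of these data known.

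Every member was named. Ratios of each array were given for HSD11B1B, HSD17B7, the 2 other members with the largest mean ratio in size (HSD3B7 and HSD17B4) and those with an unadjusted p under 0.05 for interaction or trend, besides selected ages of HSD17B12 and of single spots chosen after their values were seen. Genes most alike are the 5 with the highest Pearson r over at least 20 shared arrays. Of each list the members past the threshold were named, or else the 2 largest. Alternatives changed the centring, dye coefficient, filter, probes per gene, array scaling, array weights, moderation and replicate block, and left out each array in turn.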

Additional observations from a re-analysis of the deposited data

Results flagged for a closer look

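In 86 groups of 4 arrays (each spot of the family at each age where all 4 arrays had a value, dye coefficient removed), 5 held a value far from the other 3, where chance gives about 1 in 20 groups. HSD17B4 at 5 wk had a log2 ratio of 3.81 on replicate 4, with the other arrays between -0.16 and 0.16. HSD17B12 at 7 wk was at -0.34 on replicate 1, with the others between 0.36 and 0.45. HSD11B1L at 7 wk was at -0.29 on replicate 4, with the others between 0.15 and 0.22. Spot C of HSD17B7 was at 0.28 on replicate 2 at 7 wk, with the others between -0.13 and -0.07, and at 0.35 on replicate 1 at 11 wk, with the others between -0.28 and -0.17.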

How the results depend on the processing

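Of the 9 family genes tested, 0 passed the interaction or the trend test in limma's fit under any alternative or on leaving out any array. With only probes measured on all 24 arrays, 7 of them could be tested, without HSD11B1B and HSD11B1L. The mean ratio of HSD11B1B lay between -1.36 and -1.19 over the other alternatives and between -1.32 and -1.07 on leaving out each array. HSD11B1B had 1 spot, so no second spot could check it. Dropping the filter, 1 probe per gene and leaving out moderation could not change its ratio (-1.20 in each). The mean ratio of HSD17B7 lay between 0.23 and 0.31 on leaving out each array. It fell to 0.08 without spot B, an alternative chosen after seeing the data. Over all genes, 126 passed the mean line difference, but 54 without the dye coefficient, and 95 to 152 on leaving out each array. For the interaction 2 genes passed, with 0 on values as deposited, without the dye coefficient, with 1 probe per gene, with array weights and without moderation, 1 with arrays scaled to the same spread, and 0 to 4 on leaving out each array (0 without replicate 4 at 3 wk). For the trend 0 passed (308 at an unadjusted p under 0.05), and 0 to 1 on leaving out each array. The cause of these changes was not tested. Deviations of arrays with the same replicate number at different ages had a median r of -0.07 (from -0.36 to 0.28). For other numbers of the same orientation it was -0.11 (from -0.39 to 0.19). Whether arrays of the same number shared a batch was not tested. With the number as a replicate block in place of the dye coefficient, 106 genes passed the mean line difference, 2 the interaction and 0 the trend, the mean ratio of HSD11B1B was -1.22, and the call of ANXA1 was lost (adjusted p = 0.0542 by limma). DCXR also lost its call on values as deposited (0.0778). The calls of CYP17A1 and PNPLA2 held under all alternatives run. Each of these genes had only 1 spot past the filter, measured on all 24 arrays. The alternatives of 1 probe per gene and of only probes measured on all 24 arrays thus could not change their ratios.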
